A study of Homo sapiens with 6 samples.

Results

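The genes described here are the 31 genes of sterol and fatty acid synthesis and of their control by the SREBP transcription factors, taken by gene symbol from the 58735 gene rows of the series' table of expression values. They were chosen by pathway membership, with earlier results of these data known, and each had exactly 1 row. They comprise 7 genes of the mevalonate pathway, 11 of the steps from farnesyl diphosphate to cholesterol, 5 of SREBP control and sterol transport, and 8 of fatty acid synthesis, desaturation and phosphatidate use.

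The study measured RNA in the human bladder cancer line T24, derived from a urothelial carcinoma, with and without TGF-β1, a secreted cytokine that signals through receptor kinases and SMAD factors. One group, called TGF-b1 here, was given 10 ng/ml of TGF-β1 over 48 h, and the other, the control, was not. Each group holds 3 libraries, all labelled day 2, of wild-type genotype and from cells grown in medium with 10% serum. The comparison asks which transcripts differ with TGF-β1, in a series about stemness and epithelial-to-mesenchymal transition. Whether replicates are separate cultures is not stated, and p-values then measure no more than the spread among the 6 libraries, which may be technical.

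Cells make cholesterol from acetyl-CoA through mevalonate, isoprenoid diphosphates, squalene and lanosterol. SREBP precursors sit in the endoplasmic reticulum bound to the escort protein SCAP. When sterols are low, SCAP carries them to the Golgi, where proteases release the active factor, and when sterols are ample, INSIG proteins hold the complex back. SREBP-2, from SREBF2, mainly drives cholesterol genes, and SREBP-1, from SREBF1, mainly drives fatty acid genes. Serum in a culture medium supplies lipoprotein cholesterol and fatty acids.

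Levels are FPKM, that is fragments per length of gene and per library total. The tests compare log2(FPKM + 1) between groups with limma across 11363 genes (minimum 1 FPKM in 3 or more libraries), adjusted over all of them by Benjamini-Hochberg at a threshold of 0.05. A log2 change is TGF-b1 minus control on that scale, on which changes of low genes come out too small. All 31 members passed this filter, and a member had between 136 and 27811 fragments in a library.

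Known TGF-β targets rose: PMEPA1, which restrains SMAD signalling, had 75.3, 63.6 and 66.2 FPKM in TGF-b1 libraries, against 15.2, 14.6 and 12.4 FPKM in control libraries (log2 change 2.20, adjusted p = 7.1e-06). The cells held the keratins KRT8 and KRT18 and vimentin (VIM) at 123 to 375 FPKM, whereas KRT5, KRT19 and UPK3A were listed at 0 in all 6 libraries and the urothelial factor GATA3 was at most 0.0650 FPKM. UPK1B, a uroplakin, was at 1.003 to 1.402 FPKM in TGF-b1 libraries and at 1.72 to 1.87 FPKM in control libraries. Of 12 markers of blood, endothelial, fibroblast and liver cells, the highest was PECAM1, at 0.3601 to 0.452 FPKM in TGF-b1 libraries and 0.404 to 0.574 FPKM in control libraries, and CD3E, MS4A1 and PDGFRA were listed at 0 throughout. In bulk RNA, a difference in the share of cells that express a gene and a difference per cell cannot be told apart. The third control library stood apart. Its chi-square distance per degree of freedom on recovered fragments, where 1 is sampling noise, was 25.4 and 36.1 to the first and second control libraries, but 17.9, 17.8 and 30.1 to TGF-b1 replicates 1, 2 and 3. Within the TGF-b1 group these distances were 9.73 to 25.5. Without it, 3280 genes passed the threshold, against 277 with all 6 libraries, so values without it are given below where a call changes. Leaving out any other single library gave 124 to 330 genes. The third control library was picked out by its distances in these same data. Passing without it therefore describes how a result depends on that library and is not added support for a change.

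Among the 31 genes of sterol and fatty acid synthesis, differences between TGF-b1 and control libraries were small. For 30 of them the interval of the change stayed within 2-fold on the log2(FPKM + 1) scale. One member of 31 passed the test: TM7SF2, a sterol reductase of the steps after lanosterol, fell. No member rose. Over all genes tested, 1.29% passed as lower and 1.14% as higher, so 1 of 31 lower and 0 of 31 higher are near the background. The median log2 change of the members was -0.055, beside 0.012 over all genes tested, with 12 members above 0 and 19 below. Rescaled to TPM, where the median over the 14581 genes then tested was 0.079, 18 were above 0 and 13 below, with ACAT2, FDFT1, SQLE, SREBF1, ACLY and FASN turning sign.

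The intervals show the spread among the 6 libraries in the scaling used here. They do not cover a change of scaling, removal of the GC and length trend described further on, or leaving out a library. The 95% interval of the log2 change is not adjusted for the number of genes. On the log2(FPKM + 1) scale it lay within a 2-fold change in either direction for 30 of 31 members and within 1.5-fold for 27. That scale shrinks changes of low genes, so these are not limits on the ratio of FPKM. The change of TM7SF2 was -0.63 on it and -0.70 with a pseudocount of 0.1. CYP51A1 was the exception at 2-fold, with a lower bound of -1.33. MVD, PMVK and TM7SF2 were the other members whose interval reached past 1.5-fold, all downward. At an unadjusted p under 0.05 there were 7 members, where 25.1% of all genes tested met that level.

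**Figure D1:**
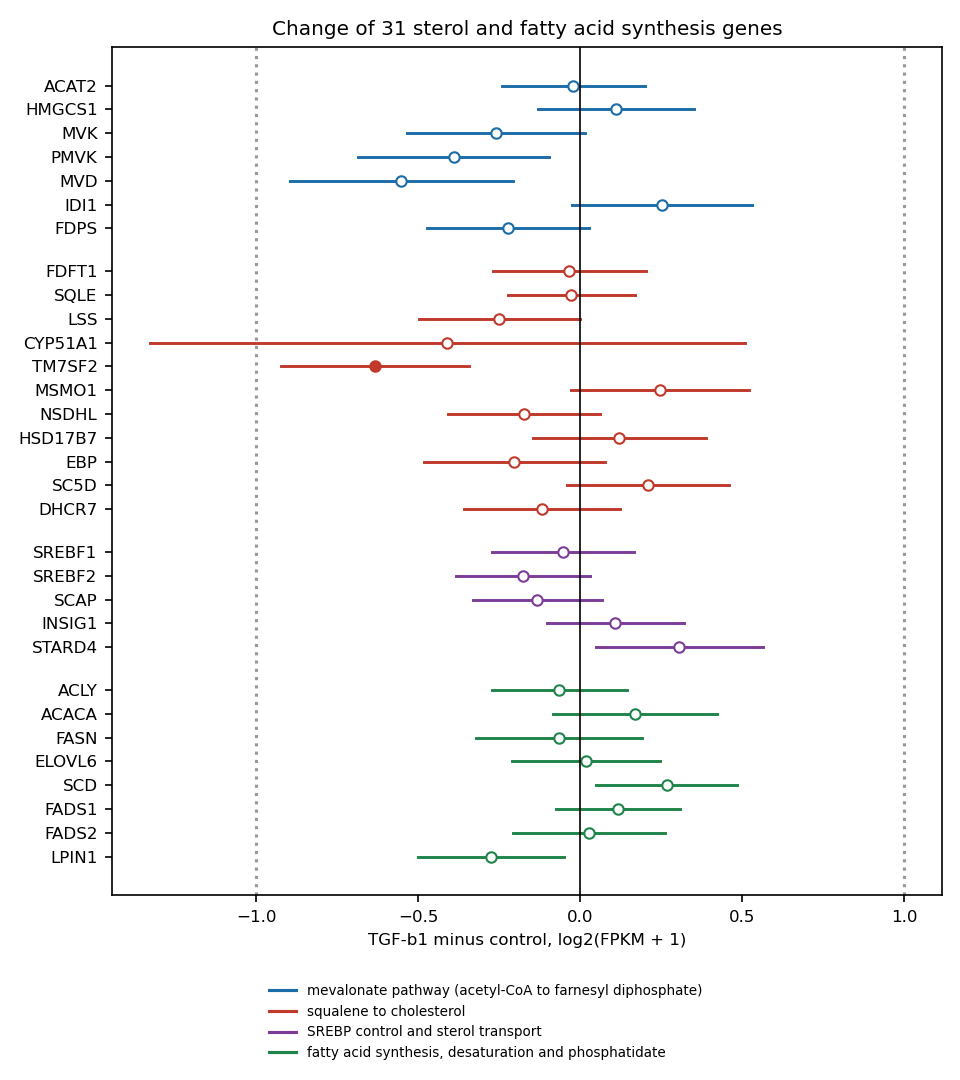
Log2 change (TGF-b1 minus control, on the log2(FPKM + 1) scale) of the 31 members, grouped by role, with 95% intervals from limma on 3 libraries a group; the filled point passed an adjusted p of 0.05 and the dotted lines mark a 2-fold change. Only TM7SF2 is filled, at -0.63, and CYP51A1 has by far the widest interval.

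Members were expressed over a wide range of levels per gene length. SCD was the highest, at a mean of 141 FPKM over the 6 libraries, followed by ACLY and FASN at 115 FPKM each, DHCR7 at 109 and INSIG1 at 99.9 FPKM. ACLY and FASN differed by less than their spread. FADS2, at 3.03 FPKM, and CYP51A1, at 4.17 FPKM, were the lowest. The place of CYP51A1 is uncertain, because 83.2% of its exon bases are shared with other genes, as described below. Summed over all 31 genes, the level was 1323 ± 30.9 FPKM in TGF-b1 libraries and 1374 ± 65.8 FPKM in control libraries (SD, n = 3), which is 96.3% of control, and the library sums overlapped.

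Promoters were read from RefSeq on GRCh38.p14, from 250 bases before to 50 after each gene's start, and 27 of 31 members had an entry. SREBP binds a sterol regulatory element, usually beside sites for NF-Y (CCAAT) and Sp1 (GGGCGG). An exact match to the core TCACNCCAC, on either strand, was present in 1 member promoter, that of SREBF2, and in 1.13% of 35116 promoters. Sterol elements with other letters were not searched for, so the other promoters may still hold one. CCAAT was present in 17 of 27 member promoters, which is 63.0%, and in 34.6% of all. GGGCGG was present in 25 of 27, which is 92.6%, and in 44.95% of all. The E-box CACGTG was present in 4 of 27, which is 14.8%, and in 7.26% of all. Only 1 entry was kept per member, while the 35116 were not limited to expressed genes or to 1 per gene. The shares are therefore not a matched comparison. A window can also miss the measured gene: that of IDI1, 1056655 to 1056954, lay outside its GENCODE 29 gene, 1039152 to 1049170. The motifs do not overlap one another in the stretches printed here, and a match is a description, not a shown binding site. These 3 stretches belong to the factor gene with the match to the core, to the member that fell and to the member with the highest level. Capitals mark the motifs, on either strand.
SREBF2, chr22:41832945-41833044, plus strand: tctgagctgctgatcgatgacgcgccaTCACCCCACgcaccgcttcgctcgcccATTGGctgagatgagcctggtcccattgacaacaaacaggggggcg
TM7SF2, chr11:65111712-65111811, plus strand: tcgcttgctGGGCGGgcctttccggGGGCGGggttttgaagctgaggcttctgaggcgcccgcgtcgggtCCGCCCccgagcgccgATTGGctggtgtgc
SCD, chr10:100346983-100347062, plus strand: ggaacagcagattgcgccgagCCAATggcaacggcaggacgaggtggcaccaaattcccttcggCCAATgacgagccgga

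SREBF2 shows the sterol core followed by an inverted CCAAT box, TM7SF2 shows GC boxes and an inverted CCAAT box without the core in this window, and SCD shows a pair of CCAAT boxes.

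The mevalonate pathway begins with the cytosolic thiolase ACAT2 and with HMGCS1, which joins acetyl-CoA units to HMG-CoA. ACAT2 shares 52.3% of its exon bases with genes on the opposite strand, SOD2 and TCP1 among them, so its level is uncertain (log2 change -0.021, adjusted p = 0.91). HMGCS1 had 31.3, 34.6 and 38.3 FPKM in TGF-b1 libraries, against 29.4, 31.2 and 35.7 FPKM in control libraries. The groups overlapped, and the log2 change was 0.11 (95% interval -0.13 to 0.35, adjusted p = 0.53).

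MVD, which decarboxylates mevalonate diphosphate to isopentenyl diphosphate, had 66.4, 57.7 and 49.97 FPKM in TGF-b1 libraries, against 93.3, 97.8 and 67.2 FPKM in control libraries. All TGF-b1 values lay below all control values, although the first TGF-b1 library nearly met the third control library. At a mean of 67.4% of control, MVD had a log2 change of -0.55 (SE 0.15) and did not pass (adjusted p = 0.085). It did pass without the third control library (adjusted p = 0.010), at a minimum of 5 FPKM (0.039) and by limma's voom on recovered fragments (0.0155).

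PMVK, the phosphomevalonate kinase one step before MVD, had 18.4, 15.0 and 16.2 FPKM in TGF-b1 libraries, against 24.6, 24.3 and 17.6 FPKM in control libraries. The groups overlapped because the third control library lay at the TGF-b1 level (adjusted p = 0.12, and 0.011 without that library). MVK, the mevalonate kinase, stood at 11.5, 10.2 and 9.55 FPKM in TGF-b1 libraries and at 13.1, 14.7 and 10.4 FPKM in control libraries. Again the third control library overlapped the TGF-b1 libraries (adjusted p = 0.22, and 0.027 without it).

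The last steps did not all lean the same way. IDI1, which isomerizes isopentenyl diphosphate, had 25.3, 34.0 and 34.5 FPKM in TGF-b1 libraries, against 23.5, 26.6 and 27.5 FPKM in control libraries, with 1 TGF-b1 library inside the control range (log2 change 0.25, adjusted p = 0.23). FDPS, which builds farnesyl diphosphate, had 71.6, 74.8 and 69.0 FPKM in TGF-b1 libraries, against 81.5, 97.2 and 74.6 FPKM in control libraries (log2 change -0.22, adjusted p = 0.24, and 0.049 without the third control library). Its groups met at the third control library, whose value lay inside the TGF-b1 range. In limma as first described, 0 of these 7 genes passed and 2 were at an unadjusted p under 0.05, and by voom 1 passed, MVD. Summed, they came to 284 ± 5.13 FPKM in TGF-b1 libraries and 325 ± 33.0 FPKM in control libraries, with control sums of 325, 359 and 293 FPKM.

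Among the 11 genes from squalene to cholesterol, TM7SF2 was the one that fell. TM7SF2 reduces the sterol ring after lanosterol demethylation, a step that the lamin B receptor LBR can also carry out. It had 7.32, 6.39 and 5.94 FPKM in TGF-b1 libraries, against 12.3, 11.5 and 8.53 FPKM in control libraries. All TGF-b1 values were below all control values, and the third control library was the lowest of its group. The mean was 60.7% of control, a log2 change of -0.63 (SE 0.13, 95% interval -0.92 to -0.34, adjusted p = 0.031). With a trend with GC content and length removed from each library, described further on, the change was smaller, -0.36, and passed (adjusted p = 0.019). The gene lies on chromosome 11 at 65111845 to 65116384 in the GENCODE 29 annotation of GRCh38 and shares only 0.469% of its exon bases with another gene. The call was lost on leaving out TGF-b1 replicate 2 or 3 or the first or second control library (adjusted p = 0.10 to 0.14), on rescaling to TPM (0.079), with no filter on low values (0.33) and with plain estimation (0.061), and it held without the third control library (0.0061). LBR itself stood at 27.6, 29.1 and 31.4 FPKM in TGF-b1 libraries and at 23.0, 23.2 and 28.4 FPKM in control libraries (log2 change 0.24, adjusted p = 0.20, and 0.022 without the third control library). Removing the trend with GC content and length brought the log2 change of LBR to 0.072 (adjusted p = 0.49).

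Neither LSS nor MSMO1 passed. LSS, which cyclizes squalene epoxide to lanosterol, had 43.8, 40.6 and 37.7 FPKM in TGF-b1 libraries, against 51.6, 52.8 and 41.9 FPKM in control libraries. The third control library lay inside the TGF-b1 range, and the log2 change was -0.25 (adjusted p = 0.20, and 0.023 without that library). MSMO1, a methylsterol oxidase, leaned the opposite way, with 40.0, 48.0 and 51.9 FPKM in TGF-b1 libraries and 34.2, 39.3 and 43.8 FPKM in control libraries (log2 change 0.25, adjusted p = 0.23).

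CYP51A1, the lanosterol demethylase, was the most variable member. Its levels were 5.83, 3.46 and 1.60 FPKM in TGF-b1 libraries, against 4.41, 5.10 and 4.61 FPKM in control libraries. The TGF-b1 libraries spanned the control range on both sides, and the change of -0.41 had a standard error of 0.36 (adjusted p = 0.50). In the annotation 83.2% of its exon bases on chromosome 7 (gene at 92112151 to 92134803) belong also to other genes, mainly to AC000120.2 on the same strand, which was listed at 0 in every library. No source used here says how shared bases were counted, and the level of CYP51A1 is uncertain.

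The remaining sterol genes differed less. FDFT1, the squalene synthase, SQLE, the squalene epoxidase, and the reductase DHCR7 had log2 changes of -0.034, -0.027 and -0.12. SQLE ranged only from 36.3 to 36.7 FPKM across TGF-b1 libraries and from 35.9 to 39.6 FPKM across control libraries. NSDHL and HSD17B7, which act in removal of the sterol's methyl groups, and EBP and SC5D, an isomerase and a desaturase, had adjusted p-values of 0.26 to 0.53. EBP passed as lower without the third control library (adjusted p = 0.043).

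The SREBP factors showed no change that passed. SREBF1 had 20.1, 18.1 and 17.3 FPKM in TGF-b1 libraries, against 20.7, 19.5 and 17.5 FPKM in control libraries, with overlapping groups (log2 change -0.055, adjusted p = 0.74). SREBF2 had 44.1, 42.5 and 40.8 FPKM in TGF-b1 libraries, against 48.8, 50.9 and 44.8 FPKM in control libraries. Its groups did not overlap, but the gap between them was under 1 FPKM and the change did not pass (log2 change -0.18, 95% interval -0.38 to 0.029, adjusted p = 0.25).

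SCAP, the escort protein, had 19.9, 20.6 and 19.7 FPKM in TGF-b1 libraries, against 23.1, 22.9 and 20.4 FPKM in control libraries (log2 change -0.13, adjusted p = 0.36). INSIG1, the retention protein and itself a sensitive SREBP target, had 97.1, 109 and 105 FPKM in TGF-b1 libraries, against 92.4, 96.9 and 99.0 FPKM in control libraries. The INSIG1 groups overlapped in 1 TGF-b1 library, and the interval of its log2 change was narrow, -0.10 to 0.32 (adjusted p = 0.48). STARD4, a soluble sterol carrier, had 16.6, 18.8 and 17.6 FPKM in TGF-b1 libraries, against 12.4, 13.2 and 16.9 FPKM in control libraries. The third control library lay within the TGF-b1 range, and the log2 change of 0.31 (adjusted p = 0.15) passed without that library (0.013).

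The fatty acid genes stayed close to control. ACLY, which makes cytosolic acetyl-CoA from citrate, averaged 112 ± 5.06 FPKM in TGF-b1 libraries and 117 ± 4.18 FPKM in control libraries (SD, n = 3; adjusted p = 0.68). FASN, the fatty acid synthase, averaged 112 ± 9.15 FPKM in TGF-b1 libraries and 117 ± 14.1 FPKM in control libraries (adjusted p = 0.74). ACACA, the acetyl-CoA carboxylase that commits carbon to the pathway, averaged 9.64 ± 0.353 FPKM in TGF-b1 libraries and 8.54 ± 1.47 FPKM in control libraries (adjusted p = 0.36). All 3 had overlapping groups, and ELOVL6, the elongase of palmitate, and the desaturase FADS2 had log2 changes of 0.019 and 0.027.

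SCD and LPIN1 stood out from them. SCD, the stearoyl-CoA desaturase, had 153, 159 and 149.5 FPKM in TGF-b1 libraries, against 124, 122 and 137 FPKM in control libraries. All TGF-b1 values were above all control values, at a mean of 120% of control, and the change did not pass (log2 change 0.27, SE 0.099, adjusted p = 0.14, and 0.021 without the third control library). LPIN1, a phosphatidate phosphatase of glycerolipid synthesis, had 8.41, 9.01 and 7.88 FPKM in TGF-b1 libraries, against 9.81, 9.68 and 11.8 FPKM in control libraries. Every TGF-b1 value was below every control value, with the third control library the farthest from the TGF-b1 libraries here (log2 change -0.27, adjusted p = 0.14, and 0.11 without that library). FADS1, the desaturase that acts after FADS2, also had groups that did not overlap, at 18.3, 19.2 and 20.3 FPKM in TGF-b1 libraries, against 17.6, 17.4 and 18.03 FPKM in control libraries (adjusted p = 0.40). FADS1 and FADS2 overlap on opposite strands over 490 exon bases, and no source used here gives the strand setting of the counting.

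**Figure D2:**
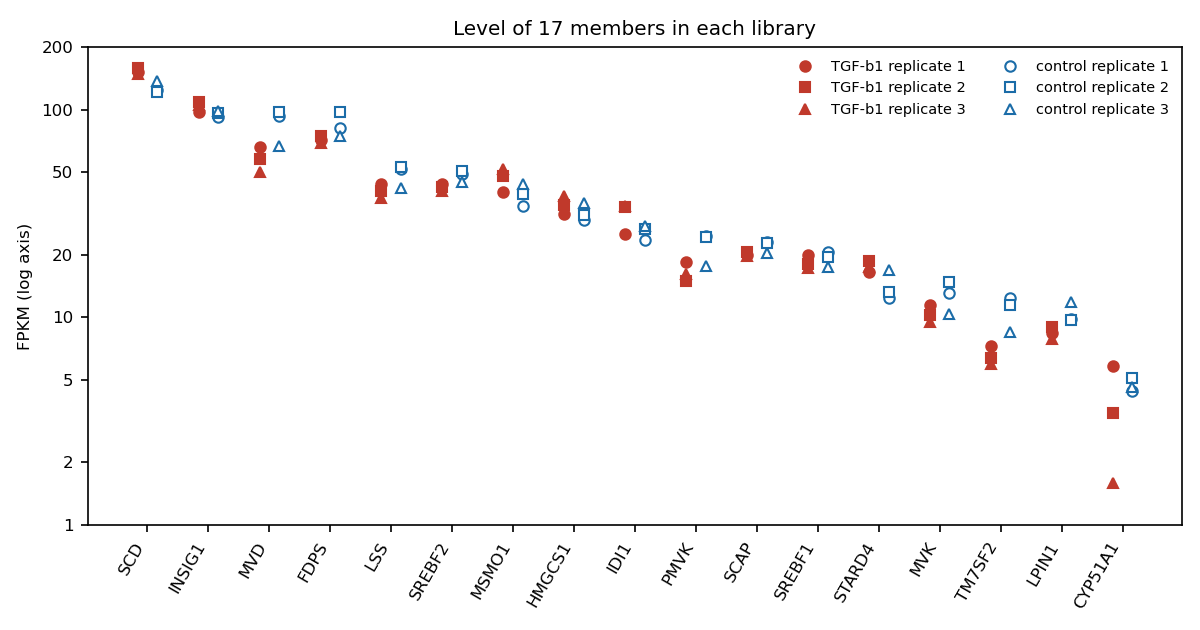
FPKM on a log axis of the 17 members described library by library; filled red symbols left of each gene are the TGF-b1 libraries, open blue symbols right of it the control libraries, and the symbol shape gives the replicate number. The open triangle, control replicate 3, lies nearer the TGF-b1 libraries than the other open symbols in genes such as MVD, at 67.2 FPKM.

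SCD and FADS1 were higher in every TGF-b1 library than in any control library, 2 of 31 members, where 14.6% of all genes tested were. MVD, TM7SF2, SREBF2 and LPIN1 were lower in every TGF-b1 library, 4 of 31 members, where 12.5% of all genes were.

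Which members leaned up or down followed the GC content of their transcripts. Taking the longest annotated transcript, 11 of 12 members above 55% GC had a negative log2 change (median -0.20), and 7 of 8 members below 45% had a positive one (median 0.17), with these limits set after the values were seen. Across the 31 members, Pearson's r between GC content and log2 change was -0.66, and across 11292 genes tested it was -0.54. Both are descriptions over genes that share the same 6 libraries. The third control library minus the other 2 controls gave r = -0.85 with GC content over the members and -0.62 over all genes, so that library differed from its own group in the same direction as the TGF-b1 libraries did. Its share of unspliced read mappings, 48.4%, also lay within the 47.8 to 48.8% of the TGF-b1 libraries and above the 46.6 and 46.2% of the other control libraries. Other libraries also differed from their own group with GC content. Set against the other 2 controls, the first control library gave r = 0.94 over the members and 0.45 over all genes, and the second 0.44 and 0.38. In the TGF-b1 group, replicates 1, 2 and 3 gave 0.38, -0.085 and -0.31 over all genes.

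**Figure D3:**
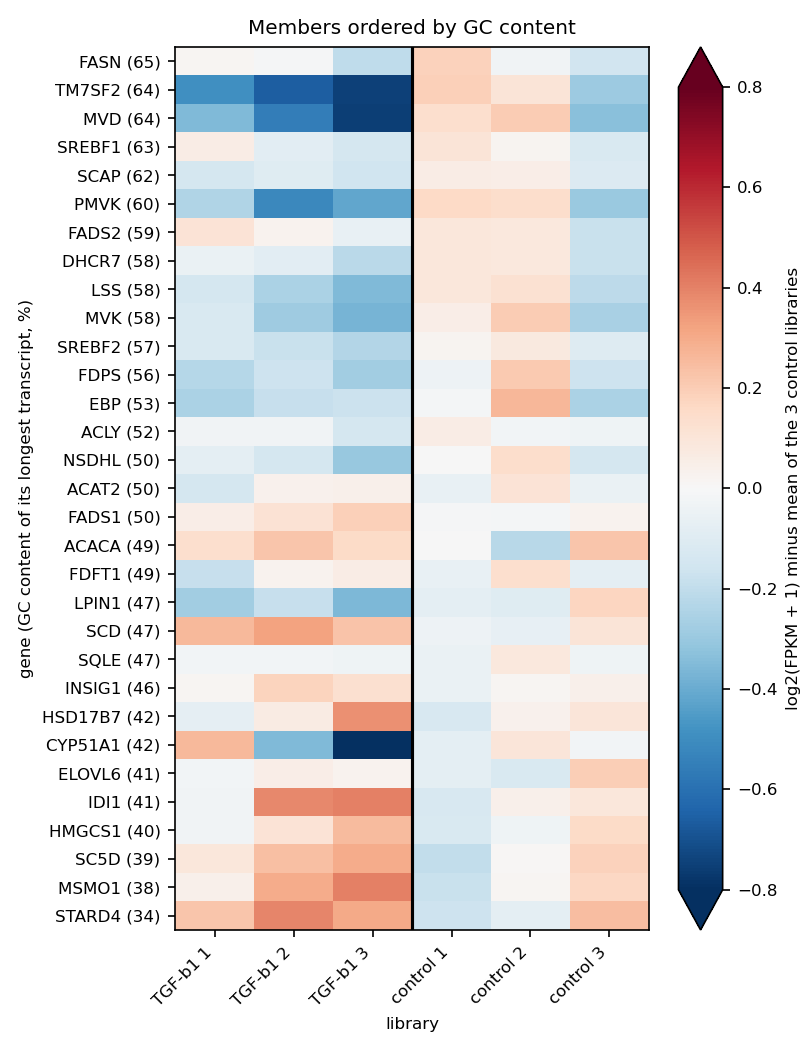
Log2(FPKM + 1) of each member in each library minus the mean of the 3 control libraries (colour), with genes ordered from high to low GC content of the longest transcript. High-GC genes are mostly blue and low-GC genes mostly red in the TGF-b1 libraries and in control 3. CYP51A1 in TGF-b1 3 lies beyond the colour scale.

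Removing from each library a smooth trend with GC content and gene length took away most of this order. The r over the members became -0.15, and over all genes 0.023. The value over all genes is small by construction, because the trend was fitted to these same genes. TM7SF2 had a smaller log2 change, -0.36 in place of -0.63, and LPIN1, of middling GC content, passed as lower at -0.36 (adjusted p = 0.021). MVD came to -0.32 (adjusted p = 0.069), PMVK to -0.14, MVK to -0.13, IDI1 to 0.13 and STARD4 to 0.11. SCD came to 0.22 (adjusted p = 0.079). That made 2 of 31 members lower, where 1.89% of all genes were, and 0 higher, where 2.57% were. The changes of HMGCS1, DHCR7, SREBF1, SCAP, FASN and ELOVL6 turned sign in this setting, none of them past the threshold (adjusted p = 0.246 to 0.83). The source of the trend was not tested, and removing it can also remove part of a difference between the groups.

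**Figure D4:**
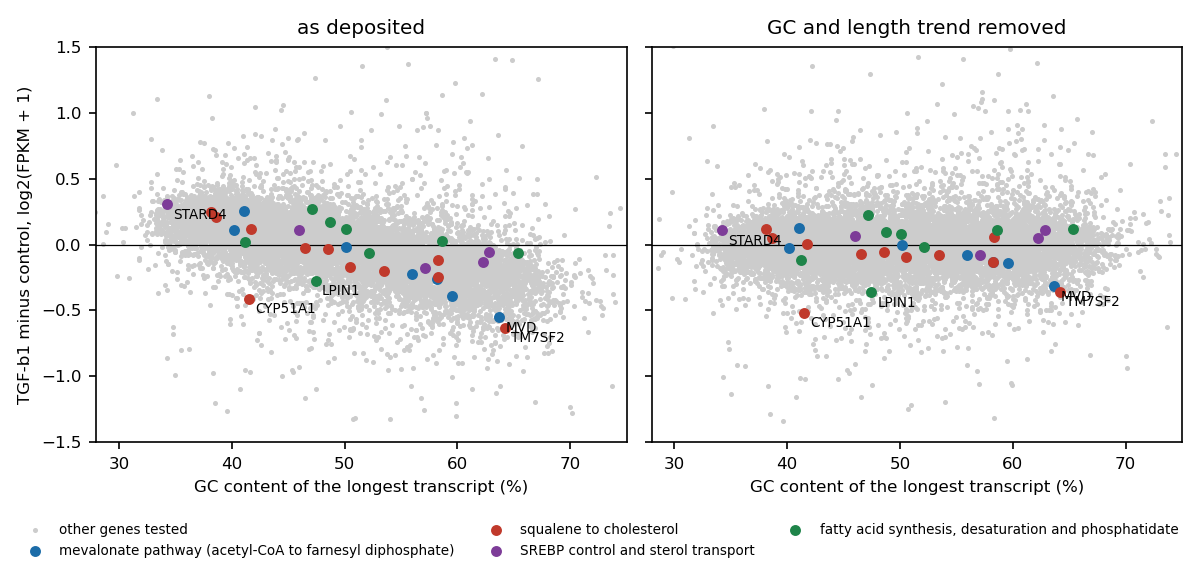
Log2 change (TGF-b1 minus control) against GC content of the longest transcript, for all genes tested with a known length (grey, those beyond 1.5 not drawn) and the 31 members coloured by role, with values as deposited (left) and after removing a trend with GC content and length (right). The slope seen on the left in grey and coloured points alike (r = -0.54 and -0.66) is flat for all genes on the right, as the fitted trend makes it by construction.

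Counts of members that passed moved with the background in other settings. Without the third control library 9 of 31 members passed, TM7SF2, MVD, PMVK, MVK, LSS, FDPS and EBP as lower and SCD and STARD4 as higher. That is 29.03% of the members, beside 28.9% of all genes (16.5% lower, 12.4% higher). By voom on recovered fragments TM7SF2 and MVD passed as lower and 0 as higher, where 5.83% and 3.51% of genes did. The number of members that passed was 0 without any one of TGF-b1 replicates 2 and 3 and control replicates 1 and 2.

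**Figure D5:**
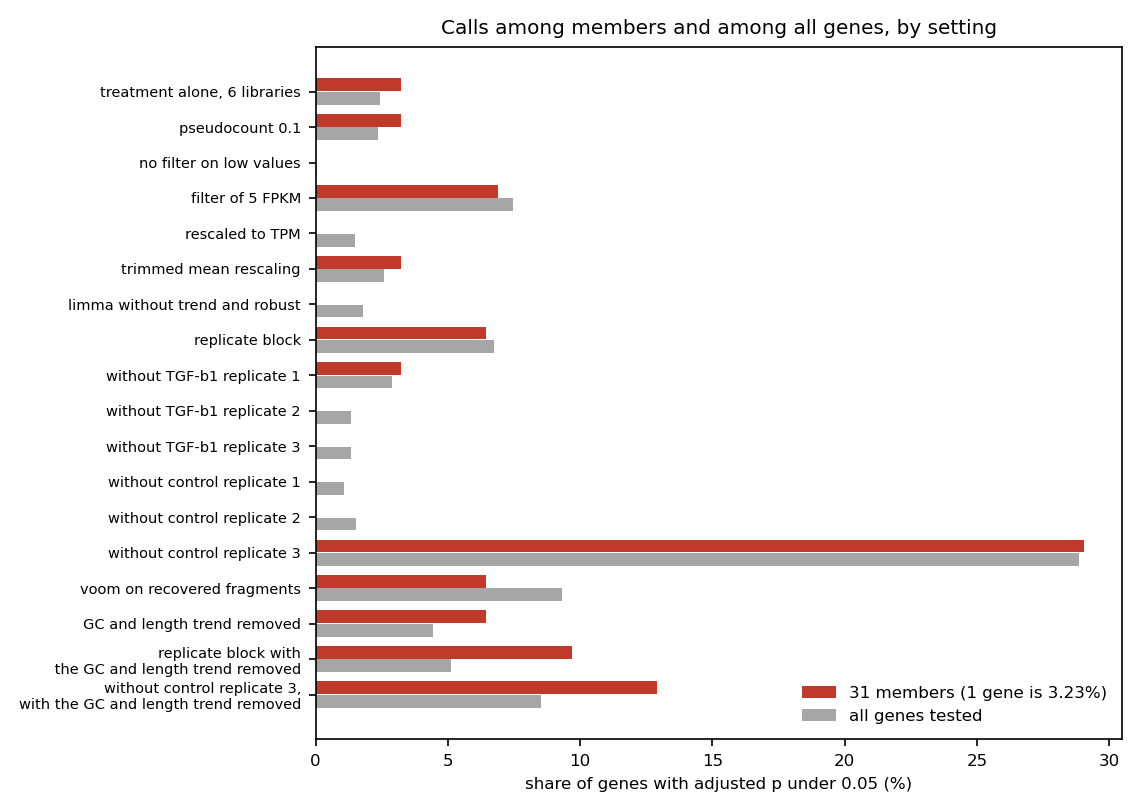
Share of genes with an adjusted p under 0.05 among the 31 members (red) and among all genes tested (grey) in each setting tried; 1 member is 3.23%, and the bars start at 0. The 2 shares lie close together in most settings, as at 29.03 and 28.9% without control replicate 3.

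Over 10 further lists of lipid genes, 111 genes were tested, and the number that passed was near the background of 1.29% lower and 1.14% higher. As lower 1 passed, MECR, the reductase of mitochondrial fatty acid synthesis, and 0 as higher. MECR had 4.395, 4.48 and 4.82 FPKM in TGF-b1 libraries, against 6.85, 7.55 and 6.12 FPKM in control libraries (log2 change -0.49, adjusted p = 0.025), without overlap. Its call was lost on leaving out any library but the third control library (adjusted p = 0.055 to 0.11). Removing the GC and length trend left the log2 change of MECR at -0.39 (adjusted p = 0.015).

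The isoprenoid branch and prenylation list had 0 of 14 past the threshold (3 at an unadjusted p under 0.05; median log2 change 0.074), and PDSS1, which makes the ubiquinone side chain, stood at 5.47, 6.21 and 6.78 FPKM in TGF-b1 libraries and at 5.07, 4.79 and 4.87 FPKM in control libraries (adjusted p = 0.13). Of 12 genes of SREBP processing and sterol-regulated degradation 0 passed (1 unadjusted; median 0.047). RNF139, an endoplasmic reticulum ubiquitin ligase, had 18.3, 19.1 and 21.6 FPKM in TGF-b1 libraries and 15.8, 17.4 and 16.95 FPKM in control libraries (adjusted p = 0.19). Among the 6 tested genes of the LXR and efflux list 0 passed (1 unadjusted, median -0.14). None of the 6 is an efflux transporter, because ABCG1, the transporter of this list, was at most 0.058 FPKM and was not tested. NR1H2, the LXR-beta receptor, was at 17.4, 15.8 and 16.05 FPKM in TGF-b1 libraries and at 23.1, 24.2 and 17.6 FPKM in control libraries (adjusted p = 0.12, 0.048 by voom and 0.0084 without the third control library). Removing the GC and length trend brought the log2 change of NR1H2 from -0.37 to -0.15 (adjusted p = 0.19). The changes of PDSS1, from 0.27 to 0.25 (adjusted p = 0.073), and RNF139, from 0.22 to 0.18 (0.11), moved less.

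Intracellular sterol transport had 0 of 13 past the threshold (2 unadjusted; median 0.070). OSBPL5, an oxysterol-binding protein relative that moves lipid at membrane contacts, came closest, at 5.04, 4.78 and 4.30 FPKM in TGF-b1 libraries and at 6.59, 6.59 and 5.75 FPKM in control libraries (adjusted p = 0.076, 0.028 by voom and 0.016 without the third control library). Of 7 genes of acetyl-CoA and NADPH supply 0 passed (2 unadjusted; median -0.020), and SLC25A1, the mitochondrial citrate carrier, had 139.8, 128 and 113 FPKM in TGF-b1 libraries and 176, 195 and 132 FPKM in control libraries (adjusted p = 0.15, and 0.015 without the third control library). The acyl-CoA synthetases had 0 of 6 (2 unadjusted; median -0.031), the glycerolipid genes 0 of 17 (5 unadjusted; median -0.039) and the 5 tested sterol ring genes, LBR among them, 0 (1 unadjusted; median 0.019). The other elongation and desaturation genes had 1 of 15, which was MECR (3 unadjusted; median -0.066). Over all genes tested the median was 0.012. Removing the GC and length trend brought the log2 change of SLC25A1 from -0.39 to -0.056 (adjusted p = 0.65). That of OSBPL5 went from -0.36 to -0.17 (adjusted p = 0.15).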

How the data were processed

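RNA of 6 libraries was sequenced as 150 bp read pairs. Per the submitters' processing notes, HISAT2 2.0.5, featureCounts 1.5.0-p3 and build hg38 were used; no source used here gives the strand setting or annotation release. The deposited values are FPKM per gene symbol, made by the authors, in 1 table of 6 columns whose first 11 rows, mapping totals, were left out; 6 single-library files hold the same values. Libraries had 53591796 to 60200816 reads, of which 93.5 to 95.5% mapped.

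GENCODE release 29 exon lengths turned 99.999% of 126561 FPKM values above 0 into whole fragments to within 0.05, with FPKM denominators of 21407905 to 23983110 fragments. Log2(FPKM + 1) values, pseudocount 1, were tested with limma 3.58.1 (R 4.3.3), with trend and robust estimation and treatment as the only term, and the p-values were adjusted over all 11363 genes. The test was also run on simulated data with independent noise and no outlying library, which does not show how it performs on these libraries. The members, lists and motifs were chosen with earlier results of these data known. Library values are given for members past the threshold, then by size of change up to 12, plus SREBF1, SREBF2, SCAP, INSIG1 and HMGCS1; from other lists at most 4 genes were named, called genes before others and larger changes before smaller. Some genes that this rule names are not reported here; they stay in the fit and in the list counts. FADS1, ACLY, ACACA, FASN, SQLE and ABCG1 were described after their values were seen. The GC trend was a loess of each library's deviation on GC content and log2 length, span 0.3. Alternatives were another pseudocount (0.1), filter, scaling or estimation, the replicate number as a block, voom, trend removal and leaving out each library; the trend removal without the third control library was chosen after the data were seen.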

Additional observations from a re-analysis of the deposited data

How the results depend on the processing

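With all 6 libraries limma called 277 genes, 46.9% of them higher. No filter gave 15, a 5 FPKM filter 500, voom 1054, trend removal 503, trend removal with the replicate block 578, and trend removal without the third control library 961; leaving out 1 library gave 124 to 3280. Rescaling to TPM gave 220 genes, 61.4% of them higher, of 14581 tested, with a median log2 change of 0.079 beside 0.012 as reported. Members called, 1 as reported, were 0 with no filter, with TPM and with plain estimation, 2 at 5 FPKM, by voom and with trend removal, 3 with trend removal and the block, 4 with trend removal without the third control library, and 0 to 9 on leaving out a library. Genes called in the other lipid lists, 1 as reported, were 0 with no filter and with TPM, 3 at 5 FPKM, 6 by voom, 6 with trend removal without the third control library, and 0 to 34 on leaving out a library. Members with groups that did not overlap, 6 as reported, were 6 to 22 on leaving out a library, where the share over all genes was 30.5 to 61.0%, against 27.1% with 6 libraries.

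Whether the replicate numbers pair the samples was not settled (correlation of deviations 0.25, -0.071 and 0.17 for the same number). Replicates 1 and 3 of each group correlated best with their own number, and replicate 2 of each group did not. With the number as a block 767 genes were called, 2 members (TM7SF2 and MVD) and 2 genes of the other lists.

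Among members and the other genes chosen by the naming rule, the changes that turned sign were all short of the threshold with 6 libraries. With TPM they became 0.058 for ACAT2, 0.046 for FDFT1, 0.052 for SQLE, 0.023 for SREBF1, 0.016 for ACLY and 0.014 for FASN. With trend removal, with or without the block, they became -0.027 for HMGCS1, 0.054 for DHCR7, 0.11 for SREBF1, 0.050 for SCAP, 0.12 for FASN, -0.12 for ELOVL6, -0.045 for PAQR3 and 0.072 for AUP1; without the third control library as well, 0.042 for DHCR7, 0.13 for SREBF1, 0.078 for SCAP, 0.12 for FASN, -0.076 for ELOVL6, -0.098 for PAQR3 and 0.060 for AUP1. On leaving out a library the ranges crossed 0 for ACAT2 (-0.053 to 0.039), FDFT1 (-0.080 to 0.041), SQLE (-0.054 to 0.016), HSD17B7 (-0.0024 to 0.22), FASN (-0.14 to 0.025), ELOVL6 (-0.043 to 0.12) and FADS2 (-0.061 to 0.074). Over 110 genes of the other lipid lists, 13 turned sign with TPM and 29 with trend removal. The causes were not tested. Members had at least 136 fragments in each library.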

Other observations

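Genes of fatty acid oxidation, which breaks down what the members build, were 16 among those tested. Of these, 0 passed in limma (1 of 12 as lower at a minimum of 5 FPKM) and 4 were at an unadjusted p under 0.05, with a median log2 change of -0.049. Voom on recovered fragments called 2 as lower, where 5.83% of all genes were, and limma without the third control library 5, where 16.5% were. With the GC and length trend removed 0 of 16 passed, as with TPM, with the replicate block and on leaving out any other single library. With the trend removed and without the third control library, 3 of 16 passed as lower, where 511 of 11292 genes did. ACADS, the short-chain acyl-CoA dehydrogenase, had 6.404, 6.76 and 6.76 FPKM in TGF-b1 libraries, against 11.6, 11.03 and 7.30 FPKM in control libraries (log2 change -0.50, adjusted p = 0.093 in limma, 0.030 by voom and 0.0050 without the third control library). Its groups did not overlap, and the third control library was again the one nearest the TGF-b1 libraries. ACADVL, the very-long-chain dehydrogenase, had 42.7, 36.7 and 36.1 FPKM in TGF-b1 libraries, against 54.4, 55.3 and 40.9 FPKM in control libraries, where the third control library lay inside the TGF-b1 range (adjusted p = 0.13 in limma, 0.048 by voom and 0.012 without the third control library).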
